A study of Homo sapiens with 30 samples.

Results

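BTG1, BTG2, BTG3, TOB1 and TOB2 are antiproliferative genes of the BTG and TOB family, found here by matching their Ensembl identifiers to the rows of a table of raw read counts. They are 5 of the 39359 genes in that table. All 5 passed the filter on low counts, which kept 21335 genes. The cells were H1299, a lung carcinoma line without p53 of its own, transiently transfected and sorted for GFP, and their RNA was sequenced 6 h and 24 h after transfection.

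Each time had 5 groups. The control vector, pGFP, carried GFP alone. The other vectors carried GFP together with wild type p53, with the RW mutant (an arginine to tryptophan change in the DNA binding domain) or with wild type p53 that had a single O6-methylguanine (O6-meG) on the transcribed strand at the same codon. In the last group, p53 TM, cells received the O6-meG vector and also O6-benzylguanine (O6-bzG), which inactivates the alkyltransferase AGT that otherwise repairs the lesion. RNA polymerase can then insert uridine opposite the lesion, so that a share of the transcripts codes for the RW mutant, a process called transcriptional mutagenesis (TM). Only the p53 TM cultures received O6-bzG. Against p53 O6-meG, which carries the same lesion, p53 TM differs by the drug. There, effects of the drug itself cannot be told apart from those of the mutagenesis it permits. In a comparison of p53 TM with any other group, the drug and the lesion cannot be told apart. Against pGFP, p53 TM differs also by carrying p53, and against the RW mutant by the p53 sequence of the vector. Expression from a plasmid is not under the control of the normal p53 gene, and RNA from bulk cultures cannot separate fewer expressing cells from less RNA per cell.

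The labels of 2 libraries at 6 h, both numbered replicate 2, name p53 O6-meG in one place and p53 TM in another. They were left out of the groups, which leaves 2 p53 O6-meG and 2 p53 TM libraries at 6 h, 3 in each other group and 28 in all. Results that move when the 2 libraries are placed by either label are given both ways. The 30 libraries held between 32302700 and 71950500 counts. KRT8, KRT18 and VIM, the keratins and vimentin of a carcinoma line, were high in every library, with at least 111, 272 and 1933 CPM (counts scaled to a common library size). EPCAM, an epithelial surface protein also on the marker list, was at most 0.381 CPM, and PTPRC of leukocytes had at most 2 counts. PECAM1 of endothelium and COL1A1 of fibroblasts were at most 0.999 and 1.99 CPM.

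The proteins of this family share an amino-terminal BTG domain. It binds the CNOT7 and CNOT8 deadenylases of the CCR4-NOT complex, which shortens the poly(A) tails of mRNAs, and TOB proteins also bind poly(A) binding protein. When overexpressed, family members slow the passage of cells from G1 into S phase. BTG2, first found as a gene induced by growth factors, is a well known target of p53, and BTG1 is its closest relative. BTG3 has been reported to bind E2F1 and CHEK1.

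By the GENCODE v44 annotation of hg38, BTG2 (ENSG00000159388.5) lies at chr1:203305491-203309602 on the plus strand. The other members are on the minus strand, BTG1 (ENSG00000133639.4) at chr12:92140278-92145846, BTG3 (ENSG00000154640.14) at chr21:17593653-17612945, TOB1 (ENSG00000141232.4) at chr17:50862223-50867978 and TOB2 (ENSG00000183864.4) at chr22:41433494-41446801. BTG3 has 5 exons in its canonical transcript and each other member has 2.

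The promoters of BTG2 and BTG3, the members that moved in opposite directions with wild type p53 at 24 h, are shown from 250 bases before to 50 bases after the RefSeq start (GRCh38.p14). Capitals mark CCAAT, the box bound by NF-Y, searched on both strands.

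BTG2 promoter, chr1:203305269-203305568, plus strand: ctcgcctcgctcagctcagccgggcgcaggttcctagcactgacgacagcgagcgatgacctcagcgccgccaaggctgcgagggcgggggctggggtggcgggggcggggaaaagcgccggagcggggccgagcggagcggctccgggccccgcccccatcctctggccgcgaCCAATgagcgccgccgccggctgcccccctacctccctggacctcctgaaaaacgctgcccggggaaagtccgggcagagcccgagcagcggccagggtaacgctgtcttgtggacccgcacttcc

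BTG3 promoter, chr21:17612852-17613151, minus strand: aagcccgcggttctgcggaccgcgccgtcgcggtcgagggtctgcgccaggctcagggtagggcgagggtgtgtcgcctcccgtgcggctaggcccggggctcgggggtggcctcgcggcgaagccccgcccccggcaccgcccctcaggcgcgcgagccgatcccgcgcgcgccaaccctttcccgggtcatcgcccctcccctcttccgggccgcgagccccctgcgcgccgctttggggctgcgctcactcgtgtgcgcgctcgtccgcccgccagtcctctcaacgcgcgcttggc

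GC content was 73.3% in the BTG2 window and 77.3% in that of BTG3. CCAAT stood at −76 from the start of BTG2, −87 from that of BTG1 and −186 from 1 of the 2 starts listed for TOB1, and was not found in the windows of BTG3 and TOB2. It was present in 34.6% of the 35116 promoters of this length. An exact p53 half-site (RRRCWWGYYY, with R for A or G, W for A or T and Y for C or T) was in none of the members' windows and in 6.63% of all promoters. No mismatch was allowed, so a p53 site that departs from this pattern would not be found. TTTCCCGC, a form of the E2F motif, was in the BTG1 window alone among the members, against 1.63% of all. TTTGGCGC, another E2F form, and TTTGAA, the CHR element of cell cycle genes, were in no member's window, against 0.652% and 15.2% of all. Each of these was searched on both strands. The BTG1 window, the one that held matches to 2 of them, had TTTCCCGC at −142 and CCAAT at −87, which do not overlap.

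BTG2 had the smallest P value of the 21335 genes in the comparison of wild type p53 with pGFP at both times. At 6 h its level was 2.21, 2.16 and 2.25 CPM in the pGFP libraries and 101.7, 92.9 and 89.3 CPM with wild type p53. All 3 wild type libraries lay far above every pGFP library. The log2 fold change was 5.42 (SE 0.17, adjusted P = 2.4e-17 by the quasi-likelihood test of edgeR with Benjamini-Hochberg adjustment over all genes), a 42.8-fold rise. BTG2 was the only member called in this comparison, 1 of 5 against 10.3% of all genes, where called means an adjusted P under 0.05. The median log2 fold change over the members was 0.04, beside 0.02 over all genes.

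At 24 h BTG2 was at 2.36, 2.29 and 2.75 CPM with pGFP and at 89.9, 81.8 and 74.1 CPM with wild type p53, again with no overlap. The log2 fold change of 5.05 (SE 0.17, adjusted P = 1.2e-16) was 33.1-fold. With 35% of all genes called at this time, BTG2 and BTG3 were the 2 members called, in opposite directions. Against pGFP, the rise of BTG2 at 24 h differed from that at 6 h by −0.37 on the log2 scale (SE 0.22), which did not pass the test (adjusted P = 0.42).

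The RW mutant left BTG2 near the control. Its level was 2.42, 2.59 and 2.73 CPM at 6 h and 2.37, 2.496 and 2.08 CPM at 24 h. The log2 fold changes against pGFP were 0.23 (95% confidence interval −0.14 to 0.60) and −0.09 (−0.47 to 0.29). By edgeR, 0 of 5 members were called for the RW mutant at either time, where 0.00469% of all genes were called at each. DESeq2 called 0 too, and 0 were under 0.05 by unadjusted P in edgeR. Against the RW mutant, wild type p53 raised BTG2 36.5-fold at 6 h, 1 of 5 members called against 9.94% of all genes. At 24 h it was 35.3-fold higher, with 2 of 5 members called against 35.6%. The other was BTG3, lower by 0.49 on the log2 scale (SE 0.06, adjusted P = 4.7e-07). BTG1, TOB1 and TOB2 were not called against the RW mutant, with log2 fold changes from −0.11 to 0.15 over both times.

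**Figure D1:**
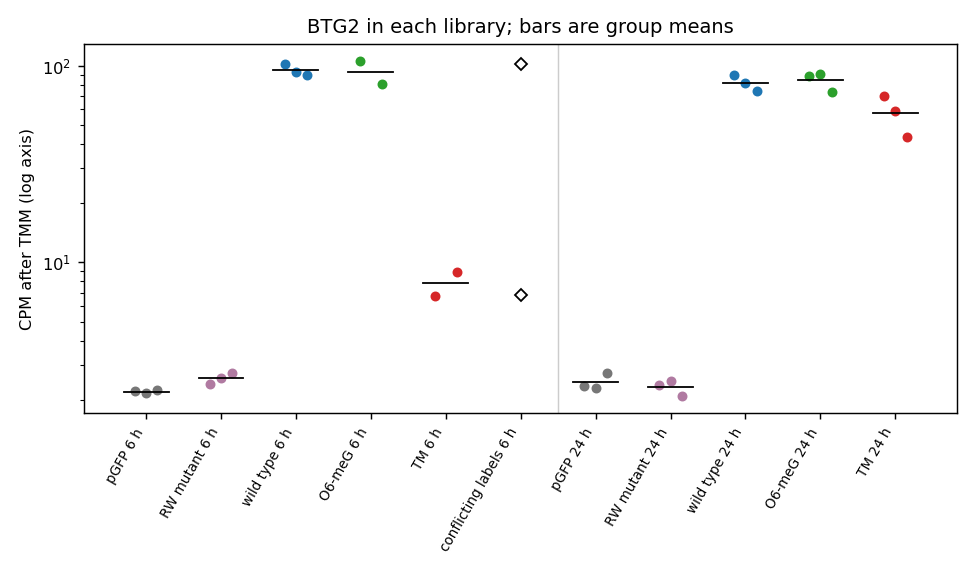
BTG2 level in CPM after TMM scaling (log axis) in each of the 30 libraries by vector and time. Points are libraries, bars are group means, and open diamonds are the 2 libraries with conflicting labels. Libraries with wild type p53 and p53 O6-meG lie between 73.4 and 105.7 CPM, those with pGFP and the RW mutant between 2.08 and 2.75 CPM, and those with p53 TM between 6.75 and 8.89 CPM at 6 h and between 43.1 and 70.2 CPM at 24 h.

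The O6-meG vector in cells with active AGT gave BTG2 levels like those of wild type p53. The 2 libraries at 6 h had 105.7 and 80.4 CPM, and the 3 at 24 h had 88.4, 90.5 and 73.4 CPM, overlapping the wild type range at both times. Against pGFP the log2 fold changes were 5.40 and 5.09. Directly against wild type p53 they were −0.02 at 6 h (95% confidence interval −0.32 to 0.28) and 0.04 at 24 h (−0.23 to 0.31). By edgeR, 0 of 5 members were called in either direct comparison, where 0% of all genes were called at 6 h and 0.00937% at 24 h. DESeq2 called 0 too, and 0 were under 0.05 by unadjusted P in edgeR.

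p53 TM gave a small rise of BTG2 at 6 h and a large one at 24 h. The level was 6.75 and 8.89 CPM in the 2 libraries at 6 h, above all pGFP libraries and below all wild type libraries. Against pGFP this was a 3.55-fold rise (log2 fold change 1.83, SE 0.18, adjusted P = 1.3e-06), the third smallest P value of all genes. BTG2 and BTG1 were called, 2 of 5 members against 0.202% of all genes. Against wild type p53, BTG2 was 12.1-fold lower (log2 fold change −3.59, SE 0.17, adjusted P = 1.2e-12), in a comparison that called 2 of 5 members and 10.9% of all genes. Against p53 O6-meG, which shares the vector but not O6-bzG, it was 11.9-fold lower (log2 fold change −3.57, SE 0.18, adjusted P = 2.9e-12). There it was the 1 member called, against 4.1% of all genes.

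These values at 6 h rest on which libraries are taken as p53 TM. The library with p53 O6-meG in its genotype field and p53 TM in the first part of its title had 6.82 CPM of BTG2, and the library with the reverse labels had 101.3 CPM. CDKN1A, which encodes the cell cycle inhibitor p21 and is a p53 target, was at 50.1 and 249.6 CPM in the same pair, beside 57.9 and 65.9 CPM in the assigned p53 TM libraries and 260.7 and 268.7 CPM in the assigned p53 O6-meG libraries at 6 h. For both genes each library lay nearer to the group named in the first part of its title, which is also its column name in the count table. No library was assigned from these values. Placed by the first part of the title, they gave a log2 fold change of −3.65 between p53 TM and wild type p53. Placed by the genotype field, they gave −1.28 with adjusted P = 0.34, no longer called (range of adjusted P over all alternatives 1.2e-95 to 0.34). Between p53 TM and p53 O6-meG at 6 h, the genotype field gave a log2 fold change of −0.73, also no longer called. That comparison stayed called by the first part of the title. Against pGFP, the rise with p53 TM at 6 h was 1.76 by the title and 4.13 by the genotype field on the log2 scale, called both ways (adjusted P = 1.8e-07 and 0.033).

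At 24 h BTG2 reached 70.2, 58.7 and 43.1 CPM with p53 TM, 23.2-fold above pGFP (log2 fold change 4.53, SE 0.16, adjusted P = 6.6e-16). It was the 1 member called, against 10.7% of all genes. TOB1 (0.17, 95% confidence interval −0.04 to 0.39) and TOB2 (0.09, −0.07 to 0.26) were not called in that comparison. For BTG2, all 3 p53 TM libraries lay below the lowest wild type library of 74.1 CPM. Each was also below the wild type library of its own replicate number. Against wild type p53 the log2 fold change was −0.52 (SE 0.13, adjusted P = 5.7e-03), with 2 of 5 members called against 21.2% of all genes. Against p53 O6-meG it was −0.55 (SE 0.13, adjusted P = 7.5e-03), with 2 of 5 members called against 10% of all genes. With the replicate number as a block, both BTG2 calls were kept. Both calls were lost without p53 TM replicate 3 (−0.35 with adjusted P = 0.055 and −0.39 with adjusted P = 0.068). They were also lost in fits of only the groups compared (adjusted P = 0.090 and 0.15) and with grouping by the genotype field (adjusted P = 0.64 and 0.67, the highest over all alternatives, the lowest being 4.4e-04 and 5.4e-04). The log2 fold changes in these 2 fits were −0.52 and −0.55, and −0.52 and −0.56, and no 24 h library changes group under the genotype field.

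Between 6 h and 24 h, BTG2 rose 7.30-fold with p53 TM (log2 fold change 2.87, SE 0.17, adjusted P = 1.7e-11), while with wild type p53 it changed by −0.21 (95% confidence interval −0.47 to 0.06) and with pGFP by 0.16 (−0.22 to 0.54). BTG2 and TOB1 were the members called with time under p53 TM, 2 of 5 against 43.6% of all genes. The difference between the changes of p53 TM and wild type p53 was 3.07 (SE 0.21, adjusted P = 1.4e-09), the 1 member called against 1.45% of all genes. Between those of p53 TM and pGFP it was 2.71 (SE 0.24, adjusted P = 3.2e-07), again the 1 member called, against 3.1% of all genes. With grouping by the genotype field these differences were 0.76 and 0.40 and were not called (adjusted P = 0.87 and 0.99, the highest over all alternatives, the lowest being 6.4e-38 and 4.7e-23). The rise with time was then 0.56 and not called (adjusted P = 0.49, over a range of 1.1e-61 to 0.49).

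**Figure D2:**
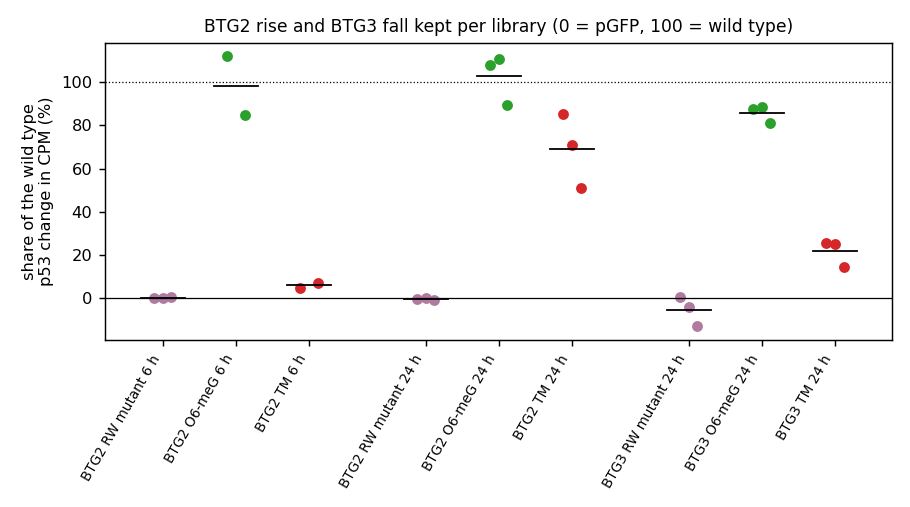
Share of the change under wild type p53 that each library kept, in percent of the difference in mean CPM between wild type p53 and pGFP at the same time, for BTG2 at 6 h and 24 h and BTG3 at 24 h. Points are libraries and bars are group means, the solid line is the pGFP mean and the dotted line the wild type mean. p53 TM kept 6.07% of the BTG2 rise at 6 h, 69.0% at 24 h and 21.9% of the BTG3 fall at 24 h.

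On the scale of CPM, p53 TM kept 6.07% ± 1.63 (SD, n = 2) of the wild type rise of BTG2 at 6 h and 69.0% ± 17.1 (SD, n = 3) at 24 h. p53 O6-meG kept 98.3% ± 19.3 (n = 2) and 102.7% ± 11.7 (n = 3). The RW mutant kept 0.406% ± 0.172 and −0.191% ± 0.265 (n = 3 each). At 24 h, p53 TM libraries ranged from 51.1% to 85.3%, and the lowest p53 O6-meG library was at 89.3%. Grouped by the genotype field, the kept shares at 6 h were 39.8% for p53 TM and 67.2% for p53 O6-meG.

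BTG3 was the member that fell with wild type p53, and only at 24 h. At 6 h it was at 65.6, 58.7 and 61.8 CPM with pGFP and 65.4, 62.4 and 57.2 CPM with wild type p53, which overlapped (log2 fold change −0.01, 95% confidence interval −0.13 to 0.12). At 24 h it was at 64.5, 64.3 and 60.2 CPM with pGFP and at 44.9, 44.6 and 46.8 CPM with wild type p53. The groups did not overlap, and the log2 fold change was −0.47 (SE 0.06, adjusted P = 9.2e-07), a 1.39-fold fall. The fall stood out from 6 h, with a difference of −0.46 between the fold changes at the 2 times (SE 0.09, adjusted P = 1.9e-03), the 1 member called against 6.51% of all genes.

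With the RW mutant at 24 h, BTG3 was at 62.9, 63.7 and 65.3 CPM, with a log2 fold change of 0.02 against pGFP (95% confidence interval −0.10 to 0.15). With p53 O6-meG it was at 47.6, 47.5 and 48.7 CPM, 1.31-fold below pGFP (log2 fold change −0.39, SE 0.06, adjusted P = 1.5e-05). Here too BTG2 and BTG3 were the 2 members called, against 29.5% of all genes. With p53 TM it was at 58.5, 58.6 and 60.4 CPM, and its log2 fold change of −0.09 was not called (95% confidence interval −0.22 to 0.04). Directly, BTG3 was higher with p53 TM than with wild type p53 by 0.38 (SE 0.06, adjusted P = 9.3e-05), and no library of one group overlapped the other. Against p53 O6-meG it was higher by 0.30 (SE 0.06, adjusted P = 2.3e-03), a call lost when only the 2 groups compared were fitted (adjusted P = 0.071, over a range of 8.3e-05 to 0.071 across alternatives).

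p53 TM kept 21.9% ± 6.17 (SD, n = 3) of the BTG3 fall and p53 O6-meG 85.8% ± 3.98 (n = 3). From 6 h to 24 h the difference between p53 TM and wild type p53 changed by 0.34 for BTG3 and missed the threshold (adjusted P = 0.061). With the replicate number as a block this difference was called (adjusted P = 0.036, over a range of 0.031 to 0.28 across alternatives). Throughout, the block gives a replicate number the same effect at 6 h and 24 h. The numbers were taken to pair cultures at 24 h alone, so it is not a paired test for 6 h or for changes with time. BTG3 shares 1250 bases with BTG3-AS1 on the opposite strand. BTG3-AS1 had at most 84 counts in a library, against at least 1626 for BTG3. Whether the authors counted by strand is not given, so reads of the shared stretch cannot be told apart.

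**Figure D3:**
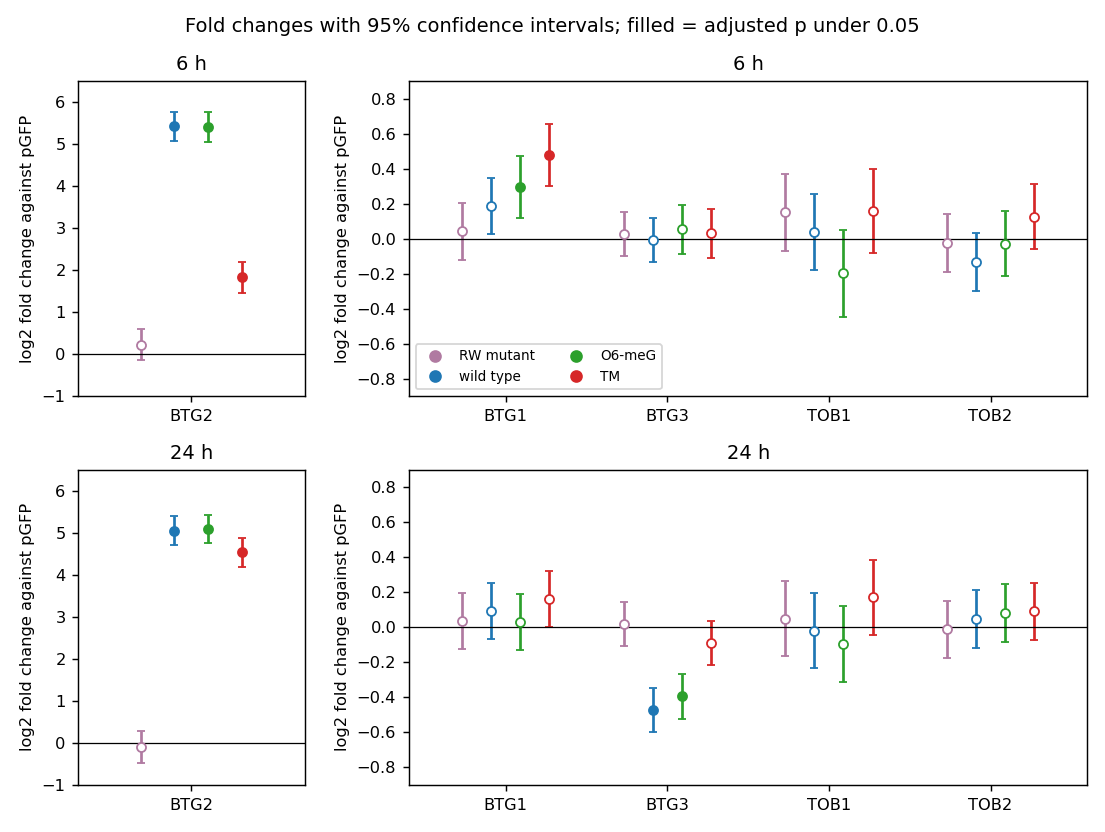
Log2 fold changes of the 5 members against pGFP with 95% confidence intervals, with 6 h in the upper and 24 h in the lower panels, for the RW mutant, wild type p53, p53 O6-meG and p53 TM. Filled points have an adjusted P under 0.05. BTG2 has an axis of its own, and at 24 h BTG3 lies at −0.47 with wild type p53 and −0.39 with p53 O6-meG.

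BTG1, the closest relative of BTG2, did not follow it. At 6 h BTG1 was at 34.8, 33.8 and 39.2 CPM with pGFP, 41.3, 42.2 and 39.4 CPM with wild type p53 and 35.0, 35.1 and 40.7 CPM with the RW mutant. The wild type libraries lay just above all pGFP libraries, but the log2 fold change of 0.19 (95% confidence interval 0.03 to 0.35) was not called after adjustment (adjusted P = 0.15). With p53 O6-meG it was at 41.6 and 46.4 CPM and with p53 TM at 50.0 and 50.1 CPM, above every library of the other groups at this time.

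Against pGFP, BTG1 rose 1.39-fold with p53 TM at 6 h (log2 fold change 0.48, SE 0.09, adjusted P = 8.5e-03). The rise with p53 O6-meG was 0.29 (SE 0.09, adjusted P = 0.048), and BTG1 and BTG2 were the 2 members called there, against 4.85% of all genes. Against wild type p53, p53 TM was higher by 0.29 (SE 0.09, adjusted P = 0.028). Against p53 O6-meG, which carries the same lesion without O6-bzG, the difference of 0.18 was not called (SE 0.09, adjusted P = 0.37). A BTG1 rise particular to p53 TM was therefore not shown. The calls against pGFP and against wild type p53 were fragile. The call of p53 TM against pGFP was lost without either p53 TM library, without pGFP replicate 1 or 2 and with grouping by the genotype field (adjusted P 0.072 to 0.16, against 3.9e-05 at the lowest over all alternatives). That against wild type p53 was lost without either p53 TM library, without wild type replicate 3, with no filter and by the genotype field (0.061 to 0.25, against 2.3e-03 at the lowest). That of p53 O6-meG was lost without O6-meG replicate 3 or pGFP replicate 1 or 2 and under 6 other settings (0.051 to 0.43, against 0.025 at the lowest). At 24 h, BTG1 was between 42.8 and 53.8 CPM in all groups, and no comparison between vectors called it.

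The libraries with conflicting labels had 49.8 CPM of BTG1 where the first part of the title names p53 TM, and 40.9 CPM where it names p53 O6-meG. BTG1 overlaps LINC01619 over 2637 bases of the same strand and BTG1-DT over 274 bases of the opposite strand, and reads shared with LINC01619 could not be split here, so its counts are less certain than those of BTG2 and TOB2, which overlap no other gene.

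BTG1 and TOB1 rose with time in the pGFP cells, 2 of 5 members called against 41.2% of all genes. BTG1 was at 45.0, 48.9 and 44.3 CPM at 24 h, above all pGFP libraries at 6 h (log2 fold change 0.36, SE 0.08, adjusted P = 6.3e-04). With wild type p53 BTG1 rose by 0.26 (SE 0.08, adjusted P = 6.9e-03), a call lost with no filter on low counts (adjusted P = 0.056, over a range of 1.2e-04 to 0.056). With p53 TM, which was already high at 6 h, the change was 0.04 (95% confidence interval −0.13 to 0.22).

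TOB1 moved with time in each vector tested and was called in no comparison between vectors. It was at 18.5, 19.3 and 19.8 CPM with pGFP at 6 h and at 27.9, 31.5 and 28.5 CPM at 24 h, without overlap. The log2 fold change was 0.61 (SE 0.11, adjusted P = 5.6e-05). With wild type p53, TOB1 rose by 0.56 (SE 0.11, adjusted P = 1.2e-04) from 20.9, 19.8 and 18.4 CPM to 30.8, 26.8 and 29.2 CPM, and with p53 TM by 0.62 (SE 0.12, adjusted P = 1.5e-04) from 20.5 and 22.4 CPM to 35.6, 30.5 and 33.0 CPM. Against pGFP, wild type p53 gave 0.04 at 6 h (95% confidence interval −0.18 to 0.25) and −0.02 at 24 h (−0.23 to 0.20). With p53 O6-meG at 6 h the 2 libraries stood apart, at 20.0 and 13.4 CPM. Without the first of these, replicate 1, TOB1 was called lower than pGFP (−0.52, adjusted P = 0.017, over a range of 0.017 to 0.96) and wild type p53 (−0.56, adjusted P = 0.032, over a range of 0.032 to 0.99), and p53 TM was called higher than p53 O6-meG (0.68, adjusted P = 2.9e-03, over a range of 2.9e-03 to 1). The latter was also called with grouping by the first part of the title, at 0.33. TOB1-AS1, which shares 1300 bases with TOB1 on the opposite strand, had at most 91 counts, and TOB1 at least 487.

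TOB2 differed little between vectors, and the calls it had there depended on the fit. At 6 h it was at 37.5, 38.3 and 37.9 CPM with pGFP, 34.4, 34.4 and 35.0 CPM with wild type p53 and 42.0 and 40.7 CPM with p53 TM. These 3 groups did not overlap. The RW mutant (36.0, 35.6 and 40.3 CPM) and p53 O6-meG (35.6 and 38.7 CPM) both spread across the pGFP range. The log2 fold change of wild type p53 against pGFP was −0.13 (95% confidence interval −0.30 to 0.03), and p53 TM lay above wild type p53 by 0.26 which missed the threshold (adjusted P = 0.064). The latter was called with the replicate block (adjusted P = 0.026), with the size factors or the test of DESeq2 and in a fit of only the groups compared (range over all alternatives 9.8e-03 to 0.33). The 2 libraries with conflicting labels had 35.9 CPM where the title names p53 TM first and 34.5 CPM where it names p53 O6-meG first, both below every assigned p53 TM library.

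TOB2 rose between 6 h and 24 h with wild type p53, to 40.2, 42.9 and 51.1 CPM (log2 fold change 0.37, SE 0.08, adjusted P = 4.9e-04). In wild type p53 cells this made 4 of 5 members called with time, BTG1, TOB1 and TOB2 higher and BTG3 lower, against 46% of all genes. With pGFP, TOB2 was at 40.5, 42.2 and 47.2 CPM at 24 h and its change of 0.19 missed the threshold (adjusted P = 0.056). It was called with the replicate block (adjusted P = 0.018) and under 5 other alternatives (range over all alternatives 9.3e-03 to 0.26). With p53 TM the change was 0.16 (adjusted P = 0.16), called with the replicate block (adjusted P = 0.046) and under 3 other alternatives (range 0.020 to 0.43). Between wild type p53 and pGFP, the changes of TOB2 with time differed by 0.18 (95% confidence interval −0.06 to 0.41), which was not called.

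**Figure D4:**
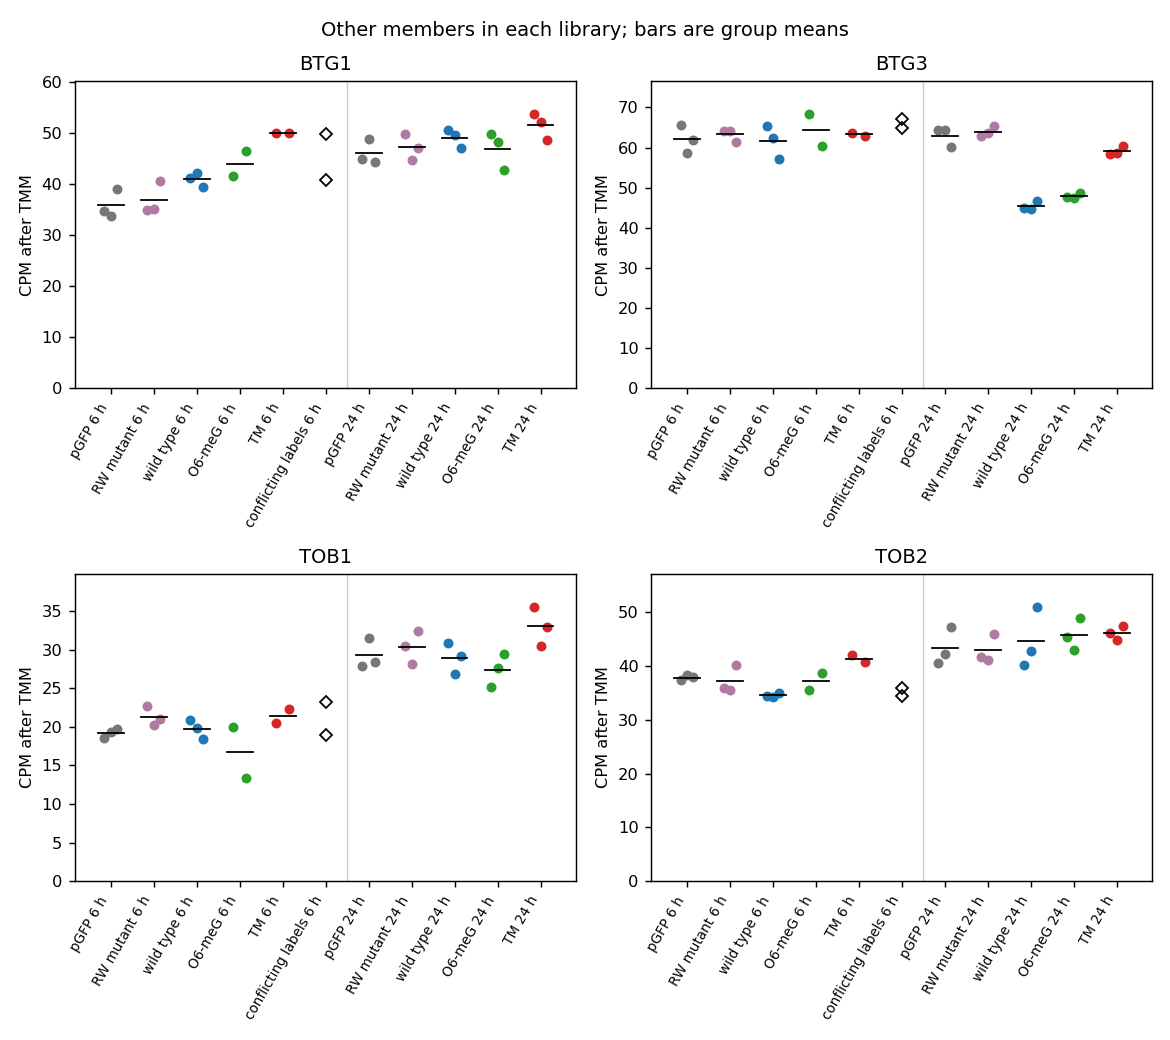
Levels of BTG1, BTG3, TOB1 and TOB2 in CPM after TMM scaling (axes from 0) in each of the 30 libraries by vector and time. Points are libraries, bars are group means, and open diamonds are the 2 libraries with conflicting labels. TOB1 is higher in every library at 24 h (at least 25.1 CPM) than at 6 h (at most 23.3 CPM), and BTG3 is below 49 CPM only with wild type p53 and p53 O6-meG at 24 h.

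Divided by the length of their exons (RPKM), levels can be set beside each other between genes. In pGFP cells at 6 h BTG3 was the most abundant member at 26.9 ± 1.5 RPKM (SD, n = 3). TOB2, TOB1 and BTG1 followed at 8.73 ± 0.0954, 7.62 ± 0.254 and 7.40 ± 0.589 RPKM, of which the last pair overlapped. The place of BTG1 is less certain, since it overlaps LINC01619 on the same strand. Exon lengths were from GENCODE v44, which holds later versions of these genes than the counts. BTG2 was last at 0.800 ± 0.0153 RPKM, 1.56% of the sum over the members. With wild type p53 at 6 h BTG2 became the first, at 34.3 ± 2.32 RPKM and 40.2% of the sum, ahead of BTG3 at 26.8 ± 1.80 RPKM and 31.4%. The sum rose from 51.5 ± 1.53 to 85.3 ± 4.64 RPKM.

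With p53 TM, BTG2 made up 4.83% of a sum of 58.7 ± 0.624 RPKM (n = 2) at 6 h and 25.5% of 80.8 ± 5.45 RPKM (n = 3) at 24 h. At 24 h BTG3 remained first with p53 TM, at 25.7 ± 0.471 RPKM against 20.8 ± 4.94 RPKM of BTG2, whose highest library (25.5 RPKM) overlapped it. With wild type p53 at 24 h BTG2 was first, at 29.7 ± 2.88 RPKM and 36.5% of the sum, and BTG3 second at 19.7 ± 0.500 RPKM.

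Of a further family member, the transcripts next to the genes and a pseudogene, 5 of the 6 in the table passed the filter. BTG4, a family member of oocytes, had between 3 and 29 counts with a log2 fold change of −0.37 (SE 0.38) for wild type p53 against pGFP at 24 h. BTG2-DT, transcribed away from BTG2, had at most 9 counts in a library and was not tested. With wild type p53 at 24 h BTG1-DT was 3.20-fold above pGFP (0.353 ± 0.0402 and 1.13 ± 0.253 CPM, adjusted P = 3.2e-04), while BTG1 itself was not called there. BTG3-AS1 fell with BTG3, from 1.84 ± 0.196 CPM with pGFP to 0.789 ± 0.0683 CPM with wild type p53 (log2 fold change −1.22, SE 0.21, adjusted P = 5.4e-05). Unlike BTG3, it rose with time in pGFP cells, by 2.32 on the log2 scale (adjusted P = 3.1e-08). TOB1-AS1 (−0.64, adjusted P = 0.056) and TOB2P1, a pseudogene of TOB2 (−0.19, adjusted P = 0.38), were not called between wild type p53 and pGFP at 24 h. TOB2P1 was higher with p53 TM than with wild type p53 at 24 h (0.56, adjusted P = 9.5e-03), but it resembles TOB2 and the split of reads between them is uncertain.

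Over the 28 libraries with a group, the genes whose log2 CPM ran most like that of BTG2 were SESN1 (Pearson r = 0.996), TIGAR (0.989) and FAS (0.987), all known p53 targets. Those most like BTG3 were ARAP2 (0.953), NET1 (0.952) and STOX1 (0.946). Those most like TOB1 were MAP1LC3B (0.938), KDM3A (0.934) and LHFPL3-AS2 (0.932). The nearest to TOB2 were MBNL2 (0.883), ARRDC3 (0.880) and H3C9P (0.873), and to BTG1 PNRC1 (0.871), KNDC1 (0.828) and NPC1 (0.827). Among the members, the highest value was 0.72 for TOB1 and TOB2 and the lowest −0.56 for BTG2 and BTG3. These values describe libraries that share groups, times and, at 24 h, replicate sets.

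Genes of the machinery that BTG and TOB proteins act through moved in both directions with wild type p53 at 24 h. Of the 12 genes of the CCR4-NOT complex, CNOT8, a deadenylase that binds the BTG domain, was the 1 called with wild type p53 at 6 h, lower by 0.27 on the log2 scale, where 10.3% of all genes were called. At 24 h CNOT1, the scaffold, was higher (0.34, SE 0.06), CNOT8 (−0.43, SE 0.08), TNKS1BP1 (−0.59, SE 0.13) and CNOT10 (−0.25, SE 0.07) were lower, and 8 were not called. These 4 of 12 stand beside 35% of all genes called. The median over the complex was −0.09, beside 0.01 over all genes. CNOT7, the other deadenylase that binds the BTG domain, was at −0.04 (SE 0.10) and not called. CNOT8 was higher with p53 TM than with wild type p53 at 6 h (0.42, adjusted P = 1.2e-03) and at 24 h (0.32, adjusted P = 4.2e-03). It was 1 of 12 called at 6 h, beside 10.9% of all genes. At 24 h TNKS1BP1 was also higher, 2 of 12 beside 21.2% of all genes. Between p53 TM and p53 O6-meG, 0 of 12 were called at either time, beside 4.1% and 10% of all genes.

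Among the 6 other deadenylases and poly(A) binding proteins, PARN (0.44, SE 0.07) and PABPC1 (0.35, SE 0.08) were higher with wild type p53 at 24 h and PAN2 (−0.54, SE 0.10) was lower, 3 of 6 beside the same 35% of all genes. PABPC1, the poly(A) binding protein of the cytoplasm, was the 1 called at 6 h (10.3% of all genes), higher by 0.29. Among 18 other proteins that bring CCR4-NOT to mRNA, 6 were higher and 4 lower at 24 h, 10 of 18 beside 35% of all genes, with a median of −0.03. TNRC6C of the microRNA machinery rose 3.30-fold (log2 fold change 1.72, SE 0.20), ZFP36L1, which binds AU-rich elements, rose 2.27-fold (1.18, SE 0.21) and SAMD4A rose 1.65-fold (0.72, SE 0.12). ZFP36L1 and TNRC6C were the 2 of 18 called at 6 h, beside 10.3% of all genes, both higher (0.89 and 1.29).

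**Figure D5:**
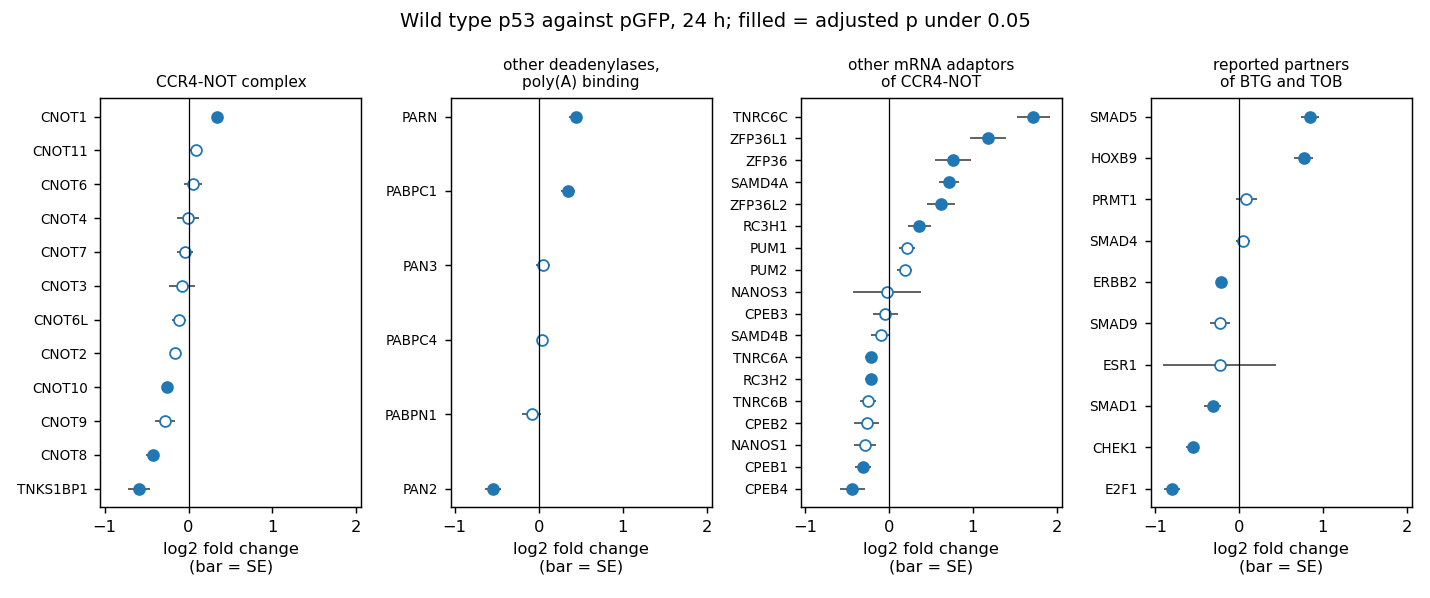
Log2 fold changes of wild type p53 against pGFP at 24 h for genes of the CCR4-NOT complex, other deadenylases and poly(A) binding proteins, other proteins that bring CCR4-NOT to mRNA and reported partners of BTG and TOB proteins. Bars are standard errors and filled points have an adjusted P under 0.05. TNRC6C lies farthest to the right at 1.72 and E2F1 farthest to the left at −0.80.

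Of 10 reported partners of BTG and TOB proteins, 2 were higher and 4 lower with wild type p53 at 24 h, 6 of 10 beside 35% of all genes, with a median of −0.22. E2F1, a transcription factor of the cell cycle, fell 1.74-fold (log2 fold change −0.80, SE 0.09, adjusted P = 1.6e-07). SMAD5, which carries BMP signals, rose 1.80-fold (0.85, SE 0.11, adjusted P = 4.7e-07), and HOXB9, a homeobox factor, rose 1.71-fold (0.77, SE 0.11, adjusted P = 3.7e-06). At 6 h SMAD5 was the 1 of 10 called, higher by 0.37, beside 10.3% of all genes. With p53 TM at 24 h E2F1 (−0.46) and SMAD5 (0.47) were called against pGFP in the same directions, and CHEK1 was lower (−0.25, adjusted P = 0.041), 3 of 10 beside 10.7% of all genes.

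BTG2 was first described as an immediate early gene, and 14 other genes of that class were read beside it. With wild type p53, 3 of 14 were higher at 6 h and 6 of 14 at 24 h, beside 10.3% and 35% of all genes called. EGR2, a zinc finger factor, rose 45.5-fold at 24 h (log2 fold change 5.51, SE 0.30), ATF3, a stress factor, 2.04-fold and FOSL1 1.99-fold. FOS was not called with wild type p53 at 24 h (0.01, SE 0.13). With p53 TM at 6 h 3 of the list were higher against pGFP (0.202% of all genes called), with a list median of 0.42. With p53 O6-meG at 6 h 4 of the list were higher against pGFP (4.85% of all genes called), with a median of 0.39, and the median between p53 TM and p53 O6-meG was −0.07, with 1 gene higher and 1 lower. The p53 TM libraries, set against wild type p53 (10.9% of all genes called), had FOS (0.97) and EGR1 (0.90) higher and EGR2 (−4.34) lower, with a list median of 0.47 beside −0.02 over all genes. Their part in the level of BTG1, which was also higher with p53 TM than with wild type p53 at 6 h, was not tested.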

How the data were processed

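Total RNA was sequenced as single reads from 30 libraries of H1299 cells, which the series describes as biological triplicates. The deposited table holds unnormalized counts of reads for each gene. The authors had aligned the reads to hg38 (STAR 2.5.3a) and assigned them to genes (featureCounts, Subread 1.5.2), with a strand setting not given in the sources used here. A deposited normalized table and the authors' own comparisons (made with DESeq2 1.20) were not used.

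edgeR 4.0.16 under R 4.3.3 was applied to the counts (filterByExpr, TMM, 10 groups in 1 quasi-likelihood fit, 22 comparisons) and Benjamini-Hochberg adjustment over all 21335 genes tested in each. Levels are CPM after TMM, and RPKM of the members uses exon length in GENCODE v44. Of the 39359 genes, 38904 were matched to a gene symbol. Replicate libraries differed by more than sampling noise (chi-square per degree of freedom 5.51 to 41.9 over 26 pairs of the same group), so each counts as 1 replicate. Same-numbered libraries deviated together in 30 of 30 pairs at 24 h (correlation of deviations 0.18 to 0.61) and over 0.1 in 11 of 23 at 6 h, so the numbers were taken to pair cultures at 24 h alone. The main fit held no term for these pairs, and the alternative with a block for the replicate number did. The scripts were tested on simulated data.

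Alternatives were other size factors, DESeq2 1.42.0, no filter, at least 10 counts in every library, a block for the replicate number, a fit of only the groups compared, both placings of the libraries with conflicting labels and each library left out in turn. The members and lists were chosen with earlier results of these data known. All members were tested in every comparison. Named beside them are up to 3 genes a list with the smallest P among those called for wild type p53 against pGFP at 24 h. Also named are BTG4, TOB2P1, the neighbouring transcripts and the 3 genes most like each member. CNOT7, CNOT10, CHEK1, FOS and EGR1, where named beyond these rules, and the genes named at other comparisons, were chosen after their values were seen. One sequence result is not reported here.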

Additional observations from a re-analysis of the deposited data

Results flagged for a closer look

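For 3 members' comparisons the effect of a vector differed between 6 h and 24 h by the interaction in edgeR's quasi-likelihood fit. BTG3 changed by −0.46 on the log2 scale for wild type p53 against pGFP (adjusted P = 1.9e-03). BTG2 changed by 2.71 for p53 TM against pGFP (adjusted P = 3.2e-07) and by 3.07 for p53 TM against wild type p53 (adjusted P = 1.4e-09), and these are not independent, since both use the p53 TM libraries.

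The 2 libraries with conflicting labels stood outside every comparison, and some of their levels lay above the highest pGFP library at 6 h. In the library with p53 O6-meG in its genotype field and p53 TM first in its title, these were BTG1 at 49.8 CPM, BTG2 at 6.82 CPM, BTG3 at 67.0 CPM and TOB1 at 23.3 CPM. In the library with the reverse labels they were BTG1 at 40.9 CPM and BTG2 at 101.3 CPM. The highest pGFP libraries were at 39.2 CPM for BTG1, 2.25 for BTG2, 65.6 for BTG3 and 19.8 for TOB1. The library at 6.82 CPM held 4.99% of the wild type rise of BTG2 and the other 107%.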

How the results depend on the processing

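Of 880 fold changes of members under other settings, 842 kept their direction and side of the threshold, as did 688 of 705 with 1 library left out. No called fold change reversed. Grouping by the genotype field moved most. It gave kept BTG2 shares of 67.2% (p53 O6-meG) and 39.8% (p53 TM) at 6 h, and members called numbered 1 for p53 O6-meG against pGFP at 6 h (2 in the report), 1 for p53 TM against pGFP at 6 h (2), 0 for p53 TM against wild type p53 at 6 h (2) and 1 at 24 h (2), 0 for p53 TM against p53 O6-meG at 6 h (1) and 1 at 24 h (2), and 0 for the changes of p53 TM against pGFP and against wild type p53 with time (1 each). By the first part of the title the count was 2 for p53 TM against p53 O6-meG at 6 h and 2 for how p53 TM changed against wild type p53.

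For p53 O6-meG against pGFP at 6 h the count was 1 with at least 10 counts in every library, with no filter, with only the groups compared, with DESeq2's size factors and with its Wald test. The change of p53 TM against pGFP gave 2 with the Wald test, and that against wild type p53 gave 2 with the filter of 10 counts and 2 with the replicate block. With only the groups compared, p53 TM against p53 O6-meG at 24 h gave 0 and p53 TM against wild type p53 at 24 h gave 1. With no filter p53 TM against wild type p53 at 6 h gave 1. The replicate block changed no other count of members by over 1.5 times, and its single-gene changes of call stand in the report. The cause was not tested, save that some settings hold fewer libraries.

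With 1 library left out, members called ranged from 1 to 2 for how p53 TM changed relative to wild type p53 with time, 1 to 3 for p53 O6-meG against pGFP at 6 h, 0 to 1 for p53 O6-meG against wild type p53 at 6 h, and 1 to 2 for p53 TM against pGFP and against wild type p53 at 6 h, p53 TM against p53 O6-meG at both times and p53 TM against wild type p53 at 24 h. Without a library of p53 O6-meG or p53 TM at 6 h, the lone one left is assumed to vary like the other groups. BTG2 in the pGFP and RW mutant libraries rests on 89 to 139 counts, the other members on at least 487.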
